A study of Mus musculus with 16 samples.

Results

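The AMPA receptor subunit genes Gria1, Gria2, Gria3 and Gria4, which encode GluA1 to GluA4, were taken by symbol from the deposited tables, 4 of 54532 genes, and all 4 were measured in every one of 16 libraries. Each library came from parvalbumin (PV) interneurons of the cortex of adult mice. In 7 libraries the mice were PV-Cre;lsl-eGFP-GluA2, so that cells with Cre recombinase from the PV driver made GluA2 fused to eGFP. In 9 libraries they were PV-Cre;lsl-eGFP, in which the same driver switched on eGFP alone. PV-Cre and a Cre-dependent fluorescent allele were thus shared by both groups. Mice of the study were 113.1 ± 11.6 days old, and the sources used here give neither age nor batch library by library. Tissue was digested, fixed in 4% paraformaldehyde for 15 min and dissociated, and cells positive for a nuclear dye and green fluorescence were sorted in bulk, per the series' design text. The stated purpose was to test the removal of calcium-permeable AMPA receptors.

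AMPA receptors are tetramers of GluA1 to GluA4 that carry most fast excitatory current in the brain. GluA2 sets their calcium permeability: a glutamine codon at the channel pore, the Q/R site, is changed in Gria2 RNA by adenosine-to-inosine editing so that it is read as arginine, and receptors that hold edited GluA2 pass little calcium. Fast-spiking PV interneurons are known for AMPA receptors with little GluA2, rich in GluA1 and GluA4.

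The stretch of each transcript around the Q/R site is shown because it is the feature that sets GluA2 apart in the receptor. Each is 51 bases from the GENCODE M21 transcripts on GRCm38, 5′ to 3′, with the Q/R-site codon in capitals, and each crosses the junction of 2 coding exons.
Gria1: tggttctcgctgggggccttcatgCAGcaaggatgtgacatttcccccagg
Gria2: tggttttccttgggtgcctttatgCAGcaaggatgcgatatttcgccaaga
Gria3: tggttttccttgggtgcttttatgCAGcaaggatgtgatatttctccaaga
Gria4: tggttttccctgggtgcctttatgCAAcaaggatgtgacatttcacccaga
Unedited, all 4 codons encode glutamine. The codon is number 600 of the Gria1 reading frame (exon 11, chr11:57243094-57243096, plus strand), 607 of Gria2 (exon 11, chr3:80706911-80706913, minus strand), 612 of Gria3 (exon 11, chrX:41610265-41610267, plus strand) and 608 of Gria4 (exon 12, chr9:4464137-4464139, minus strand). Gria2 differed from Gria3 at 3 of the 51 bases, from Gria4 at 6 and from Gria1 at 10. The genes themselves lie at chr11:57011387-57330244, chr3:80681450-80802835, chrX:41400854-41678601 and chr9:4417896-4796234 in the order Gria1 to Gria4. The tables hold levels per gene, and editing was not analysed here. Reads of the GluA2 transgene and of the mouse's own Gria2 cannot be told apart in these tables.

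The libraries held 7454165 to 15462544 counts. Reads in 1448 olfactory and vomeronasal receptor genes, called the background here, ran from 82.4 to 4142 CPM (counts scaled to the library's total), with mean log2 CPM of 9.41 ± 2.21 in eGFP-GluA2 and 9.58 ± 2.18 in eGFP (SD, n = 7 and 9). Libraries fall into low (under 500 CPM), middle and high (over 1500 CPM) background: low were eGFP-GluA2 replicates 6 and 7 and eGFP replicates 7 to 9, and high were eGFP-GluA2 replicates 1 and 3 and eGFP replicates 1 to 4. All 12 PV interneuron markers looked at had reads in every library, and their summed level averaged 9030 ± 1715 CPM in eGFP-GluA2 and 8781 ± 1652 CPM in eGFP. Gad1, the main GABA-making enzyme, and Erbb4 were the most abundant of them. Pvalb averaged 257 ± 70.4 CPM in eGFP-GluA2 and 254 ± 92.1 CPM in eGFP. In sorted bulk RNA, a change in the share of cells that express a gene and a change in RNA per cell cannot be told apart.

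Gria2 was higher in eGFP-GluA2 libraries, and of the 4 subunits only its level passed the test over all 16 libraries. In TPM, levels scaled for transcript length and for the library's total, Gria2 was 158, 147, 165, 164, 142, 300.0 and 246 in eGFP-GluA2 replicates 1 to 7, with a median of 164. In the 9 eGFP libraries Gria2 had a lowest value of 57.2, a median of 87.8 and a highest value of 108 TPM. The groups did not overlap: the lowest eGFP-GluA2 library, replicate 5, lay above the highest eGFP library, replicate 1. Gria2 averaged 189 ± 60.1 TPM in eGFP-GluA2 and 85.2 ± 15.6 TPM in eGFP, a difference of 1.11 on the log2(TPM + 0.5) scale (exact two-sided permutation p = 8.74e-05, the smallest that 11440 assignments allow). Every eGFP-GluA2 library lay above every eGFP library for 2 of 27947 genes with a mean of at least 0.5 TPM, or 0.00716%. The other was Gt(ROSA)26Sor, a transcript of the Rosa26 locus, named after its values were seen.

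The difference in Gria2 was found at each background level. It was 1.54 (log2 TPM) among low-background libraries, 1.07 among middle and 0.94 among high ones, and the mean within levels was 1.17 (exact permutation within levels, p = 0.000667, the smallest that 1500 assignments allow). The highest Gria2 values, 300.0 and 246 TPM, were those of the 2 low-background eGFP-GluA2 libraries. Without the 5 low-background libraries the difference was 0.96 (exact permutation p = 0.00433). Leaving these libraries out, here and below, was an alternative added after seeing the data.

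**Figure D1:**
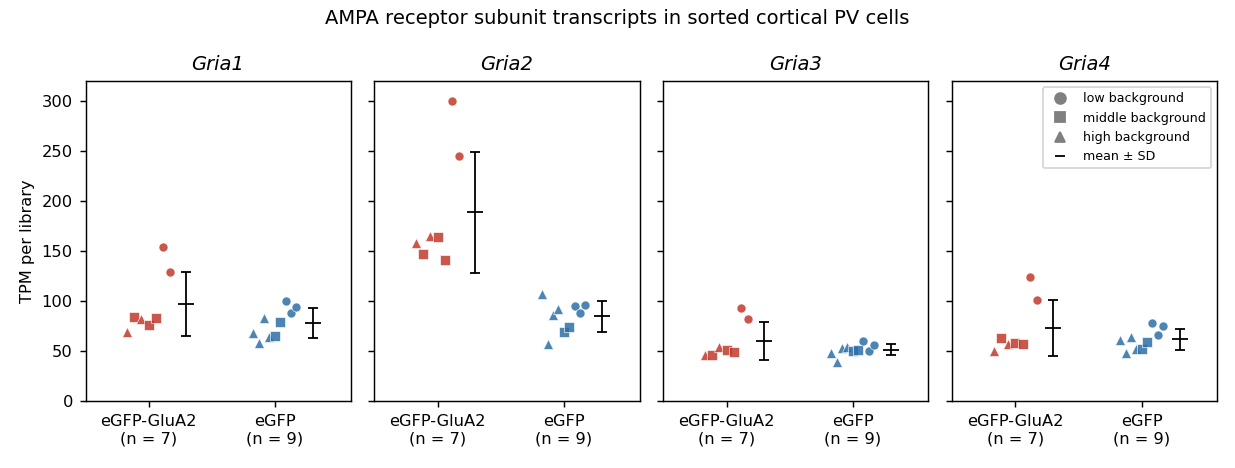
TPM of Gria1 to Gria4 (1 panel each, shared axis) in every library, eGFP-GluA2 left of eGFP. Point shapes give the background level, and bars are mean ± SD (n = 7 and 9). Gria2 does not overlap between the groups (142 to 300.0 against 57.2 to 108 TPM), while the other 3 subunits do, and the 2 low-background eGFP-GluA2 libraries are highest in every panel.

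Gria1, which encodes GluA1, a subunit of calcium-permeable receptors, had 69.5, 83.9, 82.1, 76.5, 83.6, 155 and 130 TPM in eGFP-GluA2 replicates 1 to 7. Its eGFP values had a lowest of 58.8, a median of 79.5 and a highest of 101 TPM. Only eGFP-GluA2 replicates 6 and 7 lay above the eGFP range. The log2 TPM difference was 0.28 (exact permutation p = 0.138). Within background levels it was 0.58 in low, 0.18 in middle and 0.15 in high libraries, with a mean of 0.30 (exact permutation within levels, p = 0.00800). On log2 CPM of the deposited counts the difference within levels was 0.15 (exact permutation p = 0.00867, an alternative added after seeing the data).

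Gria3, which encodes GluA3, had 46.7, 46.2, 54.1, 50.9, 49.0, 93.4 and 82.4 TPM in eGFP-GluA2 replicates 1 to 7. In eGFP it had a lowest of 39.8, a median of 51.6 and a highest of 59.9 TPM. Outside replicates 6 and 7 every eGFP-GluA2 value lay within the eGFP range. The difference was 0.18 on the log2 TPM scale (exact permutation p = 0.279), and without the low-background libraries it was -0.00215 (exact permutation p = 0.987).

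Gria4, which encodes GluA4, the subunit known for fast kinetics in PV interneurons, had 50.7, 63.7, 57.6, 58.1, 57.6, 125 and 102 TPM in eGFP-GluA2 replicates 1 to 7. In eGFP its lowest value was 48.5, its median 60.9 and its highest 77.9 TPM. Here too only replicates 6 and 7 of eGFP-GluA2 exceeded the eGFP range. The difference was 0.18 (log2 TPM, exact permutation p = 0.350), made up of 0.62 in low, 0.10 in middle and -0.05 in high-background libraries. It was 0.0445 without eGFP-GluA2 replicate 6, 0.0937 without replicate 7 and 0.0352 without the low-background libraries (exact permutation p = 0.785, 0.677 and 0.671).

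The 3 subunits that no transgene encodes summed to 231 ± 79.1 TPM in eGFP-GluA2 and 192 ± 29.2 TPM in eGFP, a log2 difference of 0.22 (exact permutation p = 0.225). Within background levels the mean difference was 0.25 (exact permutation p = 0.0307), made up of 0.62 in low, 0.09 in middle and 0.06 in high libraries. The sum of all 4 averaged 420 ± 138 TPM in eGFP-GluA2 and 277 ± 40.2 TPM in eGFP.

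A share within a library does not depend on its depth, so the makeup of the subunit pool was compared as the percent that each subunit took of the TPM of all 4. Gria2 made up 42.7 to 48.7% of the pool in eGFP-GluA2 libraries (median 44.6%), against 28.0 to 37.8% in eGFP libraries (median 29.8%). The mean share of Gria2 was 45.1 ± 2.16% in eGFP-GluA2 and 30.7 ± 3.37% in eGFP, a difference of 14.4 percentage points (exact permutation p = 8.74e-05). It was 14.8 points in low, 15.6 in middle and 14.6 in high-background libraries, so that it was similar at each level. Replicates 6 and 7 of eGFP-GluA2, the highest in TPM, held Gria2 shares of 44.6 and 43.9%, in the middle of their group. On shares of the deposited counts, which are not scaled for length, Gria2 took 39.7 ± 2.41% in eGFP-GluA2 and 30.6 ± 3.32% in eGFP, a smaller difference of 9.16 points (exact permutation p = 0.000175). The eGFP libraries with the highest Gria2 shares by TPM were replicates 1 and 4, at 37.8 and 35.0%, both of high background. Replicates 2 and 3 of eGFP, also of high background, held 28.0 and 30.2%.

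Shares sum to 100%, so the other 3 were lower where that of Gria2 was higher. Gria1 took 23.2 ± 1.36% in eGFP-GluA2 and 28.1 ± 2.42% in eGFP, with overlap (difference -4.98 points, exact permutation p = 0.000962). Gria3 took 14.4 ± 0.537% in eGFP-GluA2 and 18.8 ± 1.50% in eGFP, without overlap (difference -4.34 points, exact permutation p = 8.74e-05). Gria4 took 17.3 ± 1.23% in eGFP-GluA2 and 22.4 ± 1.19% in eGFP, without overlap (difference -5.07 points, exact permutation p = 8.74e-05). On shares of the deposited counts the differences were -3.49 points for Gria1, -2.58 for Gria3 and -3.09 for Gria4 (exact permutation p = 0.0139, 8.74e-05 and 8.74e-05). Relative to the same summed TPM, 1422 of 27947 genes, or 5.09%, lay below every eGFP library, so this lower position is not particular to Gria3 and Gria4. Genes above every eGFP library on that scale numbered 2, or 0.00716%.

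With Gria2 left out of the pool, no difference in TPM shares over all 16 libraries passed 0.05, while on shares of the deposited counts that of Gria1 did (1.92 points higher, exact permutation p = 0.0222). By TPM, Gria1 then made up 42.2 ± 1.06% in eGFP-GluA2 and 40.6 ± 1.95% in eGFP (difference 1.61 points, exact permutation p = 0.0725). Gria3 made up 26.3 ± 1.55% in eGFP-GluA2 and 27.1 ± 2.37% in eGFP (difference -0.807 points, exact permutation p = 0.457). Gria4 made up 31.5 ± 1.44% in eGFP-GluA2 and 32.3 ± 1.18% in eGFP (difference -0.804 points, exact permutation p = 0.235). The Gria1 share was lower by 0.959 points in low-background eGFP-GluA2 libraries than in low-background eGFP ones, and higher by 2.57 points in middle and 2.62 points in high ones. Without the low-background libraries, an alternative added after seeing the data, the Gria1 share was 2.82 points higher (exact permutation p = 0.0216). Without eGFP replicate 8 it was 1.93 points higher (exact permutation p = 0.0322).

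**Figure D2:**
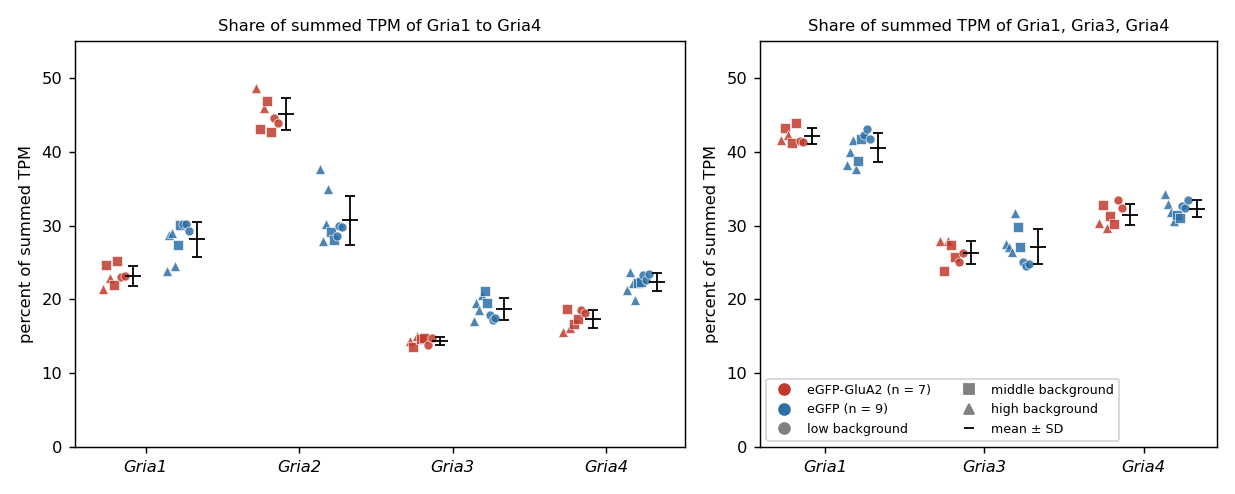
Percent of the summed TPM taken by each subunit in each library, over all 4 subunits (left) and over Gria1, Gria3 and Gria4 (right), eGFP-GluA2 left of eGFP, with mean ± SD (n = 7 and 9) and point shapes for background level. Gria2 holds 42.7 to 48.7% against 28.0 to 37.8%, and with Gria2 left out the groups overlap for each of the other 3.

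In each ratio to another subunit, Gria2 did not overlap between the groups. The TPM ratio of Gria2 to Gria1 was 1.69 to 2.27 in eGFP-GluA2 (mean 1.96 ± 0.205) and 0.935 to 1.59 in eGFP (mean 1.11 ± 0.233). To Gria3 it was 2.89 to 3.39 in eGFP-GluA2 (mean 3.13 ± 0.169) and 1.38 to 2.21 in eGFP (mean 1.65 ± 0.248). To Gria4 it was 2.31 to 3.12 in eGFP-GluA2 (mean 2.63 ± 0.304) and 1.18 to 1.77 in eGFP (mean 1.38 ± 0.222). Against the other 3 summed it averaged 0.825 ± 0.0731 in eGFP-GluA2 and 0.447 ± 0.0749 in eGFP. Over that same sum, 2 of 27947 genes (0.00716%) lay above every eGFP library and 14 (0.0501%) below. For the ratios to a single subunit, the share of all genes without overlap was not counted.

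By mean TPM the order of the subunits was Gria2, Gria1, Gria4, Gria3 in both groups. All 7 eGFP-GluA2 libraries followed it. There the log2 ratio of Gria2 to Gria1 was 0.96 ± 0.15, that of Gria1 to Gria4 0.42 ± 0.08 and that of Gria4 to Gria3 0.26 ± 0.14 (SD, n = 7, each with an exact sign-flip permutation p = 0.0156, the smallest possible). In eGFP libraries the first place was not separated: Gria2 was above Gria1 in 5 of 9, and the log2 ratio was 0.12 ± 0.27 (exact sign-flip permutation p = 0.320). Gria1 stood above Gria4 in 9 of 9 eGFP libraries, by 0.33 ± 0.08 (exact sign-flip permutation p = 0.00391). Gria4 stood above Gria3 in 8 of 9, by 0.26 ± 0.16 (exact sign-flip permutation p = 0.00781). The log2 ratio of Gria4 to Gria3 was thus 0.26 in both groups. Without the 6 high-background libraries the eGFP ratio of Gria2 to Gria1 was -0.01 (exact sign-flip permutation p = 0.750).

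**Figure D3:**
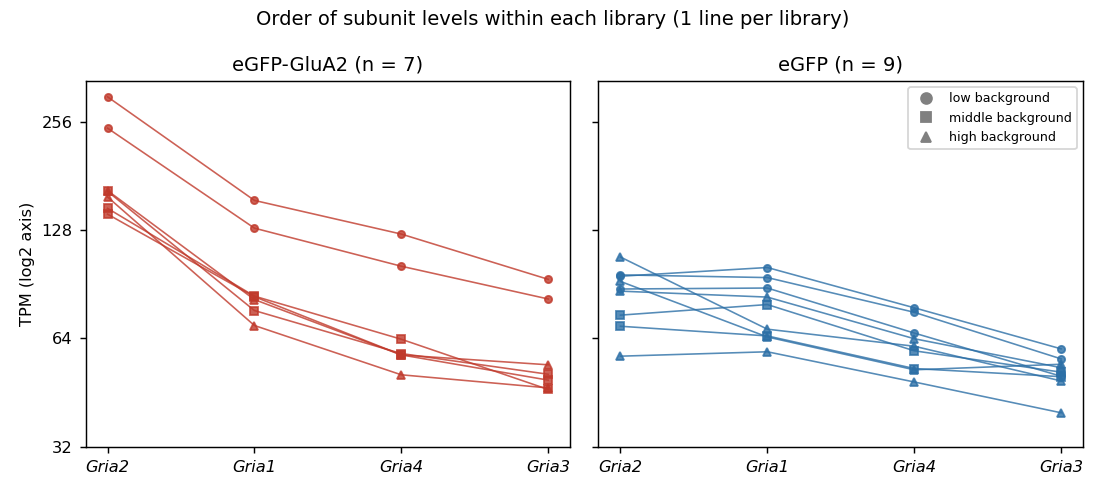
TPM of the 4 subunits in each library (log2 axis), 1 line per library, eGFP-GluA2 on the left and eGFP on the right, with point shapes for background level. Every eGFP-GluA2 line falls from Gria2 to Gria1, while in eGFP Gria2 lies above Gria1 in 5 of 9 libraries.

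On the deposited counts, tested across 26257 genes with edgeR, 1 gene passed an adjusted p of 0.05, or 0.00381%, and it was Gt(ROSA)26Sor. Gria2 averaged 935 ± 117 CPM (796 to 1109) in eGFP-GluA2 and 581 ± 84.8 CPM (475 to 729) in eGFP. Here too the groups did not overlap, as for 4 of 26257 genes on log2 CPM, or 0.0152%, the others being Gt(ROSA)26Sor, Adora1 and Bop1, named after their values were seen. Its log2 fold change was 0.71 ± 0.16 (SE, 95% interval 0.37 to 1.05), with an unadjusted p of 0.000375, rank 9 of all genes, and an adjusted p of 1.00 by edgeR's quasi-likelihood test. With the background level as a covariate the fold change was 0.69 ± 0.11 and the adjusted p 0.0145, in a fit that called 9 genes (0.0343%). DESeq2 on the same counts gave 0.70 with an adjusted p of 0.00812, again with 9 genes called (0.0336%). The fold change was 0.69 to 0.71 in these 3 fits, and its adjusted p lay on either side of the threshold. On whole numbers from the normalized table edgeR gave 1.04 ± 0.15 with an adjusted p of 0.0217 and 3 genes called (0.0127%). On TPM limma gave 1.11 ± 0.19 with an adjusted p of 0.0982 and 2 genes called (0.00716%).

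The other 3 subunits had smaller fold changes on counts, none past the threshold in the fit without covariates. Gria1 averaged 744 ± 99.8 CPM in eGFP-GluA2 and 665 ± 68.6 CPM in eGFP, a log2 fold change of 0.17 ± 0.21 (95% interval -0.27 to 0.60). Gria3 averaged 297 ± 38.1 CPM in eGFP-GluA2 and 287 ± 14.0 CPM in eGFP, a log2 fold change of 0.06 ± 0.18 (95% interval -0.32 to 0.43). Gria4 averaged 379 ± 52.5 CPM in eGFP-GluA2 and 363 ± 25.3 CPM in eGFP, a log2 fold change of 0.08 ± 0.18 (95% interval -0.30 to 0.46). Each of these intervals overlapped the Gria2 interval of 0.37 to 1.05, and the fold changes themselves were not tested against each other. The intervals do not show that levels were equal. Compared within libraries, the Gria2 share of the deposited counts was 9.16 points higher in eGFP-GluA2 (exact permutation p = 0.000175).

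**Figure D4:**
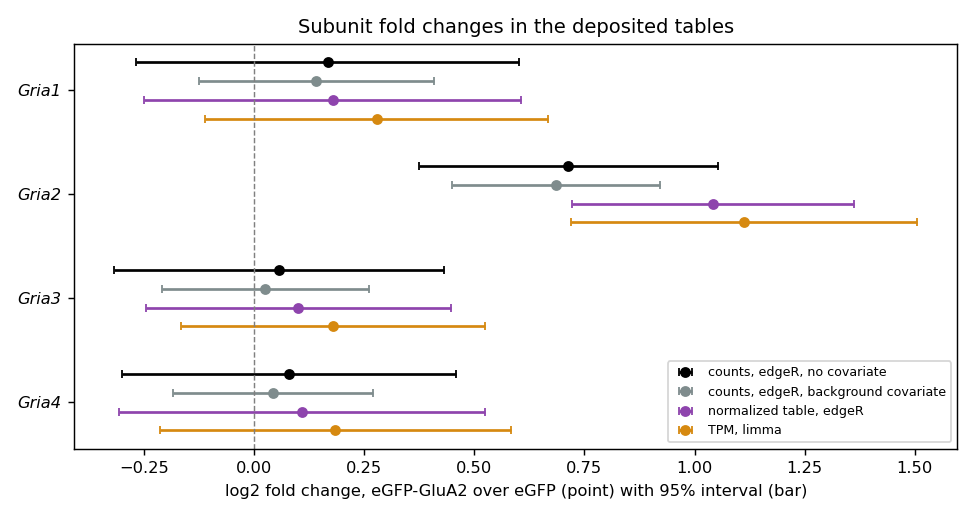
Log2 fold change of each subunit, eGFP-GluA2 over eGFP (point), with its 95% interval (bar), in 4 fits: counts with edgeR without and with the background covariate, the normalized table with edgeR, and TPM with limma. Gria2 lies between 0.69 and 1.11, with every interval above 0, while the intervals of the other 3 include 0.

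In the authors' deposited table of their comparison, Gria2 had a log2 fold change of 0.85 with a standard error of 0.116 and an adjusted p of 4.63e-09. The normalized values deposited beside it differed by 1.01 in mean log2 between the groups. How the authors' value was fitted was not examined. Of the 48144 genes with an adjusted p in the authors' deposited table, 9 were under 0.05, and 4 of these were higher in eGFP-GluA2. Log2 fold changes in the authors' deposited table were 0.12 for Gria1, 0.07 for Gria3 and 0.07 for Gria4, each with an adjusted p of 1.00.

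The Gria2 fold change differed between the deposited tables, and this was followed within libraries. Over 9126 genes, the normalized values of the third table were a rescaling of TPM, with a residual SD of 0.00123 on the log2 scale and 100% of values within 2%. The deposited counts were not: their residual SD against TPM was 0.362, with 17.7% within 2%. The log2 ratio of scaled normalized-table values to scaled deposited counts was, for Gria2, -0.19 ± 0.18 in eGFP-GluA2 and -0.56 ± 0.13 in eGFP (SD, n = 7 and 9). The difference was 0.37 (exact permutation p = 0.000524), and the ratio in 6 of 7 eGFP-GluA2 libraries exceeded all eGFP values. The share of all genes with such a separation was not counted. For Gria1 the same difference was 0.06 (exact permutation p = 0.413), for Gria3 0.08 (exact permutation p = 0.217) and for Gria4 0.07 (exact permutation p = 0.473).

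Set against Gria1 in the same library, the counts behind 1 TPM of Gria2 were 0.620 to 0.693 in eGFP-GluA2 and 0.730 to 0.884 in eGFP, without overlap. How many other genes would not overlap in this ratio was not counted, so it is not known to be particular to Gria2. Fewer counts stood behind each TPM of Gria2 in eGFP-GluA2 libraries. In the normalized table that ratio was 0.746 in each of the 16 libraries. The annotation holds 2 protein-coding Gria2 transcripts of 10371 and 4026 bases with the same coding length of 2649 bases, so that they differ mainly after the coding sequence, which is 7271 bases in the long one and 926 in the short one. TPM depends on the length assigned to a gene in a library, and which transcripts or transgene sequence the reads of Gria2 came from was not tested.

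**Figure D5:**
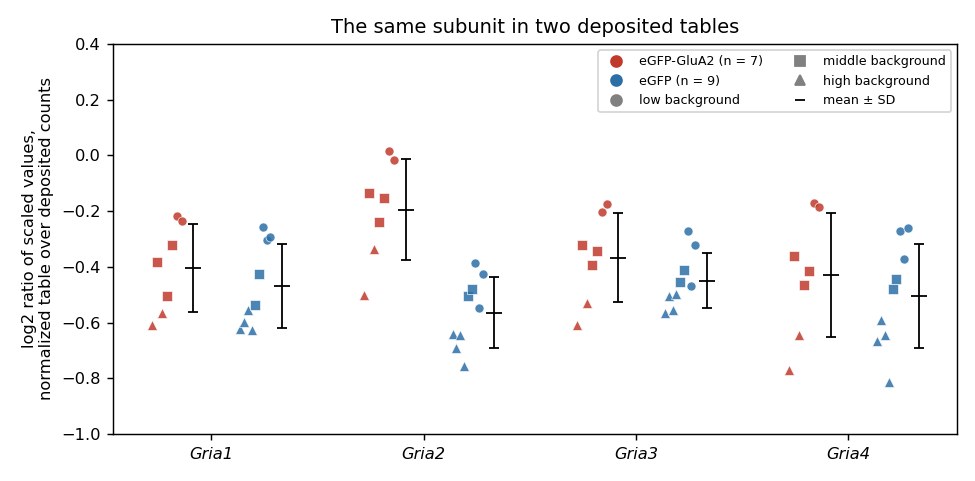
Log2 ratio of scaled values of the normalized table to scaled deposited counts, per subunit and library, eGFP-GluA2 left of eGFP, with mean ± SD (n = 7 and 9) and point shapes for background level. Gria2 sits at -0.19 ± 0.18 against -0.56 ± 0.13, while the other 3 differ by 0.06 to 0.08. Within each group the ratio is lowest in the high-background libraries for every subunit.

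Genes that bind, carry or resemble AMPA receptors were described from lists, beside a median log2 fold change of -0.02 over all genes, of which 45.5% lay above 0. No gene of these lists passed the threshold, in either direction, with edgeR without covariates, with the background covariate or with DESeq2. Of 13 auxiliary subunits, proteins that ride with AMPA receptors and shape their gating, 12 had a fold change above 0, with a median of 0.19. Shisa8, an auxiliary protein also called CKAMP39, had the smallest p of them: 7.81 ± 1.07 CPM in eGFP-GluA2 and 5.34 ± 1.72 CPM in eGFP, a log2 fold change of 0.61 ± 0.14 with an adjusted p of 1.00 by edgeR. Cacng2, which encodes stargazin, averaged 185 ± 35.6 CPM in eGFP-GluA2 and 162 ± 30.6 CPM in eGFP.

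Of 16 trafficking and anchoring genes, 14 lay above 0, with a median of 0.08. Nptx1, a secreted pentraxin that gathers AMPA receptors at synapses, averaged 21.7 ± 0.826 CPM in eGFP-GluA2 and 16.3 ± 3.40 CPM in eGFP, a log2 fold change of 0.46 ± 0.12 with an adjusted p of 1.00 by edgeR. Grip1 and Pick1, whose proteins bind the end of GluA2, had log2 fold changes of 0.12 ± 0.12 and 0.05 ± 0.09.

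Of the 7 NMDA receptor subunits 6 lay above 0, with a median of 0.09, and Grin2c had the smallest p (0.22 ± 0.22). Of the 7 kainate and delta receptor subunits 5 lay above 0, with a median of 0.06, and Grik2 had the smallest p (-0.18 ± 0.14). Adarb1, whose product ADAR2 edits the Q/R site of Gria2, averaged 576 ± 114 CPM in eGFP-GluA2 and 552 ± 105 CPM in eGFP, a log2 fold change of 0.05 ± 0.26. Adar, the other active editing enzyme of the list, had 0.11 ± 0.19. The levels of the enzymes overlapped between the groups.

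Markers of excitatory neurons, which also express Gria genes, were looked at for the same contrast. None of the 15 passed the threshold, and 12 lay above 0 with a median of 0.18. Their summed level averaged 704 ± 21.6 CPM (678 to 744) in eGFP-GluA2 and 643 ± 38.5 CPM (585 to 708) in eGFP. This sum was thus higher in eGFP-GluA2, by 0.13 on the log2 scale (exact permutation p = 0.00306, and 0.00667 within background levels). None of the 15 was at 0 in any library. Slc17a7, the vesicular glutamate transporter of cortical excitatory cells, averaged 44.2 ± 11.0 CPM in eGFP-GluA2 and 30.0 ± 6.50 CPM in eGFP, with a log2 fold change of 0.58 ± 0.22 and an adjusted p of 1.00 by edgeR. Cux2 and Camk2a were the most abundant of the list and weigh most in its sum. Cux2 averaged 191 CPM in eGFP-GluA2 and 185 CPM in eGFP, and Camk2a 186 and 165 CPM. How specific each marker is to excitatory cells was not examined. The mean log2 CPM of the 15 markers, not their sum, was used as a covariate. In eGFP it was 3.95 to 4.46 in high-background and 3.29 to 3.73 in low-background libraries. In eGFP-GluA2 it was 4.35 to 4.60 and 3.79 to 3.87, so this covariate also followed the background level. With it, the log2 fold change was 0.85 for Gria2 and 0.40 for Gria1 (adjusted p = 0.000229 and 0.0478 by edgeR). That fit called 307 genes (1.17%), 291 of them higher in eGFP-GluA2, so a call upward was not particular to the subunits. In it 24.7% of genes had an unadjusted p under 0.05, against 1.12% in the fit without covariates. In the same fit Gria3 and Gria4 both had 0.26 (adjusted p = 0.0531 and 0.0658 by edgeR). With the background level added to that fit, Gria2 had 0.74 and Gria1 0.32 (adjusted p = 0.000358 and 0.145 by edgeR), so the Gria1 call was lost. The part of these markers in the difference of Gria2 or Gria1 was not tested beyond that fit.

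Other marker lists had no member past the threshold either. Of 12 PV markers 6 lay above 0, with a median of 0.00, Kcnc1 having the smallest p (0.25 ± 0.23). Of 11 markers of other interneurons 6 lay above 0, led in p by Lamp5 (0.51 ± 0.14, adjusted p = 1.00 by edgeR) and in level by Reln and Cck. Of 8 astrocyte markers 3, of 9 oligodendrocyte markers 7, of 8 microglia markers 7 and of 8 endothelial and mural markers 4 lay above 0. Their summed levels were 380 CPM for astrocytes, 130 for oligodendrocytes, 43.0 for microglia and 39.9 for endothelial and mural cells in eGFP-GluA2, against 375, 116, 42.1 and 40.5 CPM in eGFP.

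Likeness of pattern was measured as the pooled SD within groups, over the 16 libraries, of the log2 CPM ratio of a gene to a subunit, among the 5993 genes whose log2 CPM averaged 5 or more. A small SD means that the gene kept a near-constant ratio to the subunit. The closest to Gria1 were Ergic1, Spire1, Ntrk2, Ganab and Adam9 (SD 0.0584 to 0.0657). The closest to Gria2 were Zfp799, Zfp638, Ythdc2, Rev3l and Ube2b (0.0630 to 0.0779). The closest to Gria3 were Adam22, 4932438A13Rik, Cers6, Nbea and Atp8a2 (0.0426 to 0.0604), and to Gria4 they were Zmat4, Cpd, Sptlc2, Socs7 and Adgrl3 (0.0483 to 0.0670). These places depended on the libraries used: without the 6 high-background libraries, 2 of the 20 named genes were still among the 5 closest, and their ranks ran from 1 to 457. There the SD of Zfp638 to Gria2 was 0.0207, against 0.0664 over all libraries, and that of Sptlc2 to Gria4 was 0.0317, against 0.0611. Over all libraries the median gene had an SD of 0.198 to Gria1, 0.248 to Gria2, 0.206 to Gria3 and 0.198 to Gria4.

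Among the subunits, Gria1 and Gria4 kept the steadiest ratio. Their SD was 0.0880, which ranked Gria4 55th of 5993 genes for Gria1 and Gria1 53rd for Gria4. Gria3 ranked 418th for Gria1 and 143rd for Gria4. Over all 16 libraries Gria2 was the farthest of the subunits from each of the others, at rank 3732 for Gria1, 2013 for Gria3 and 1679 for Gria4, on a measure that leaves out the difference between the groups. Without the 6 high-background libraries, Gria4 ranked 2nd for Gria1 and Gria1 1st for Gria4, with an SD of 0.0302, and Gria2 ranked 1688th for Gria1. Gria2 then ranked 1087th for Gria4, ahead of Gria3 at 1353rd.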

How the data were processed

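RNA-seq reads were processed with bcbio-nextgen 1.2.3, STAR on GRCm38, Sailfish with the Ensembl annotation and DESeq2, per the series' design text in the labels. The authors deposited 3 tables of 54532 genes: whole-number counts that are not normalized (no counter is named for them in the sources used here), TPM scaled for transcript length, and normalized signal values beside the authors' log2 fold changes, test statistic (a score) and p-values. Of the deposited normalized values 100% were whole multiples of a library's smallest unit (tolerance 0.001), 10477517 to 17382059 units per library, and edgeR on these whole numbers called 3 genes. Since they rescale TPM, they are not independent read counts. Use of strand in counting is not given. The genes overlapping Gria2, Gria3 and Gria4 in GENCODE M21 are miRNA genes, with medians of 0, 0 and 13 counts. Identifiers were named from GENCODE M21 for 54409 genes.

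Counts were tested with edgeR 4.0.16 (TMM, filterByExpr, robust quasi-likelihood F test, Benjamini-Hochberg over 26257 genes, threshold 0.05), after the code was tested on simulated data. CPM used library totals, and log2 CPM a prior count of 2. Levels, shares and table ratios were compared in 16 two-sided exact permutation tests over all libraries, not adjusted for their number, and orders within a library by 6 exact sign-flip tests. The 16 measures were tested again within background levels, and most of them on other scales or subsets of libraries. The summed CPM of each of the 12 gene lists was compared by exact permutation over all libraries and within background levels. The sums of excitatory markers and of auxiliary subunits passed 0.05 both ways, and that of oligodendrocyte markers within levels only. Those further p-values were not adjusted either. Replicates are numbered as biological in the labels. Depth limits the precision little, since every subunit had at least 1959 counts in every library. Alternatives used limma 3.58.1 on log2(TPM + 0.5), DESeq2 1.42.0, 1 surrogate variable (sva 3.50.0), R 4.3.3 and Python 3.11.15. Named were the 4 subunits, the 5 genes closest to each, the member of smallest p in each list and the most abundant markers. Others (Gt(ROSA)26Sor, Adora1, Bop1, Cacng2, Grip1, Pick1, Adarb1, Pvalb) were added after their values were seen. The members, the 12 gene lists and the background levels were chosen with earlier results of these data known.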

Additional observations from a re-analysis of the deposited data

Results flagged for a closer look

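Of 40 sets of values by group looked at for a single library far from the others, 1 stood out: Gria3 in eGFP replicate 2, the lowest of its group at 5.33 log2 TPM, or 39.8 TPM. Its gap to the nearest library was 0.498 of the group's range. Chance marks about 1 in 20 such sets. The same library was also the lowest of the eGFP group in TPM for Gria1, Gria2 and Gria4, at 58.8, 57.2 and 48.5 TPM.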

How the results depend on the processing

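The differences in Gria2 TPM, in the 4 shares and in the ratio between tables kept their direction and their side of 0.05 in every alternative permutation test. In shares of counts, those of Gria2, Gria3 and Gria4 shrank to 9.16, -2.58 and -3.09 points. The 4 limma fits on TPM gave Gria2 1.11 to 1.12, with an adjusted p of 0.0904 to 0.106, so none passed. The Gria2 fold change on counts (0.71) stayed above 0 in all, at 0.65 to 0.77 when each library was left out (adjusted p 0.531 to 1.00). It also missed the threshold with RLE size factors, without a filter on low counts and without the high-background libraries (adjusted p 0.440, 0.9999 and 0.294 by edgeR). It passed the threshold with DESeq2 (0.70), upper-quartile scaling (0.69), genes of average log2 CPM of at least 2 (0.69), background as a covariate (0.69) or as 3 levels (0.67), 1 surrogate variable (0.69), excitatory markers (0.85), both covariates (0.74) and whole numbers from the normalized table (1.04), at adjusted p from 0.000229 to 0.0217. With both covariates the median of all genes was 0.13.

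Genes called numbered 9, 2, 2, 9, 11, 9, 307, 27 and 3 in those 9 fits, 3 without the high-background libraries and 2 in each of the 4 limma fits on TPM, against 1 here and in each fit without a library. Fold changes near 0 turned for Gria3 with background levels (-0.0201), without the high-background libraries (-0.00295) and without eGFP-GluA2 replicate 6 or 7 (range over libraries -0.0111 to 0.138), and for Gria4 with background levels (-0.000406). The Gria3 TPM difference was -0.00215 without the low-background libraries.

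Gria1 passed 0.05 in TPM within background levels (0.30), in log2 CPM within them (0.15) and with the excitatory covariate (0.40, but 0.32 with adjusted p 0.145 by edgeR when background was added). Its share among Gria1, Gria3 and Gria4 passed in counts (1.92 points, exact permutation p = 0.0222), without the low-background libraries (2.82, added after seeing the data) and without eGFP replicate 8 (range over libraries 1.26 to 1.93). The sum of these 3 passed within levels (0.25). Without the high-background libraries the orders could not pass (smallest exact permutation p 0.0625): 0.91, 0.40 and 0.32 in eGFP-GluA2, and -0.0146, 0.37 and 0.30 in eGFP, for Gria2 over Gria1, Gria1 over Gria4 and Gria4 over Gria3. The cause was not tested.

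Whether replicate numbers pair the samples is not given. Same-numbered libraries deviated together with r over 0.1 in 6 of 7 pairs (-0.0692 for number 4), and 3 of 7 correlated best with their own number. Numbers 1, 3, 5 and 7, at 0.89, 0.87, 0.22 and 0.91, also shared a background level. Numbers 2, 4 and 6, at 0.59, -0.0692 and 0.17, did not. These correlations therefore do not show whether the numbers pair the samples. With the replicate block 7 genes were called, the Gria2 fold change was 0.81 (adjusted p 0.134 by edgeR) and the Gria1 TPM difference 0.35 (exact permutation p = 0.0312).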
